A study of Mus musculus with 12 samples.

Results

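The comparison described here sets mouse fibroblasts that received TGF-beta1 together with adipocyte-conditioned medium against fibroblasts that received such medium without it. It uses 6 of the 12 libraries of the series, the 3 labelled TGF_VEC_CM and the 3 labelled VEC_CM, and it covers every gene that passed a filter on low counts. Per the labels, the cells were primary mouse cardiac fibroblasts grown with serum, starved for 12 h and treated for 24 h. In both groups the conditioned medium came from adipocytes infected with a vector lentivirus, and TGF-beta1 was the labelled difference. That both groups had the same vector, or the same batch of virus or medium, is not assumed here. The sources used here name no strain, age or sex of the mice, no source of the adipocytes and no dose of TGF-beta1, and they do not say whether TGF-beta1 was added to the medium, the fibroblasts or the adipocytes. The series places the groups without TGF-beta1 in its first part and those with it in its second, so TGF-beta1 and the part of the study cannot be told apart in any value below. Nothing in the labels says that the 3 libraries of a group came from separate cultures, so the p-values measure spread between libraries that may be technical.

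The 6 libraries held 34539071 to 36557860 counts, and 3 counts corresponded to at most 0.0842 CPM, the unit of level used throughout (counts scaled to library size with the TMM factor, which corrects for composition). The leading principal component of log CPM carried 71.9% of the variance and separated the groups, and the next, with 7.91%, set VEC_CM replicate 1 apart from replicates 2 and 3. Mitochondrial messenger RNA took 2.23 to 2.29% of the counts in VEC_CM and 1.97 to 2.03% in TGF_VEC_CM. The label of cardiac fibroblasts was met in part. Collagen I and III, Pdgfra, Pdgfrb, Vim and Ddr2, which mark fibroblasts, were present in all 6 libraries, with Col1a2 at 4323 to 4439.8 CPM, Pdgfra at 164 to 203 CPM and Ddr2 at 439 to 446 CPM. Other defining markers were at or near the limit of counting: Dcn lay at 0.0817 to 0.244 CPM, Lum at 0 to 0.0273 CPM and Thy1 at 0.137 to 0.421 CPM. So did Acta2 at 0.271 to 0.739 CPM and Tagln at 0.137 to 0.243 CPM, the actin and actin-binding genes that mark myofibroblasts. Of 13 factors of the heart lineage in the table, 6 passed the filter, each with a mean over 1 CPM. Among these Gata4 was at 2.00 to 4.45 CPM, Tbx18 at 7.98 to 12.02 CPM, and Tbx3, Meis1 and Meis2 were also present. Those that did not pass the filter were weaker, and Gata6, Tbx5 and Tbx20 lay at or under 0.0270 CPM in every library. Hoxc10, a factor of the posterior trunk, was at 82.5 to 111 CPM.

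TGF-beta1 is a secreted factor that fibroblasts sense through a pair of receptor kinases, the type II and type I receptors. These phosphorylate SMAD2 and SMAD3, which enter the nucleus with SMAD4 and act on target genes together with other transcription factors. Early targets include genes that hold the pathway back, such as Smad7, Skil and Pmepa1, and genes of matrix assembly and crosslinking, such as Tgm2 and Postn. In many fibroblasts, heart fibroblasts among them, longer exposure is known to raise collagen and contractile genes as cells become myofibroblasts.

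Of 14400 genes tested, 4161 were higher in TGF_VEC_CM (28.9%) and 4235 were lower (29.4%), by edgeR's quasi-likelihood test at an adjusted p of 0.05 (Benjamini-Hochberg, over the whole set of genes tested). Most of these changes were small: the median absolute log2 change of the called genes was 0.337, and the median log2 fold change of all genes tested was 0.00405. At a change of at least 2-fold the balance was uneven, with 1047 genes higher (7.27%) and 282 lower (1.96%). Because 58.3% of all genes passed the test, a share of a gene list near that value says nothing about the list. These shares are the background for every count below. Without VEC_CM replicate 1, the library that stood apart, 4089 genes were higher and 3851 lower, 1089 and 284 by at least 2-fold.

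**Figure D1:**
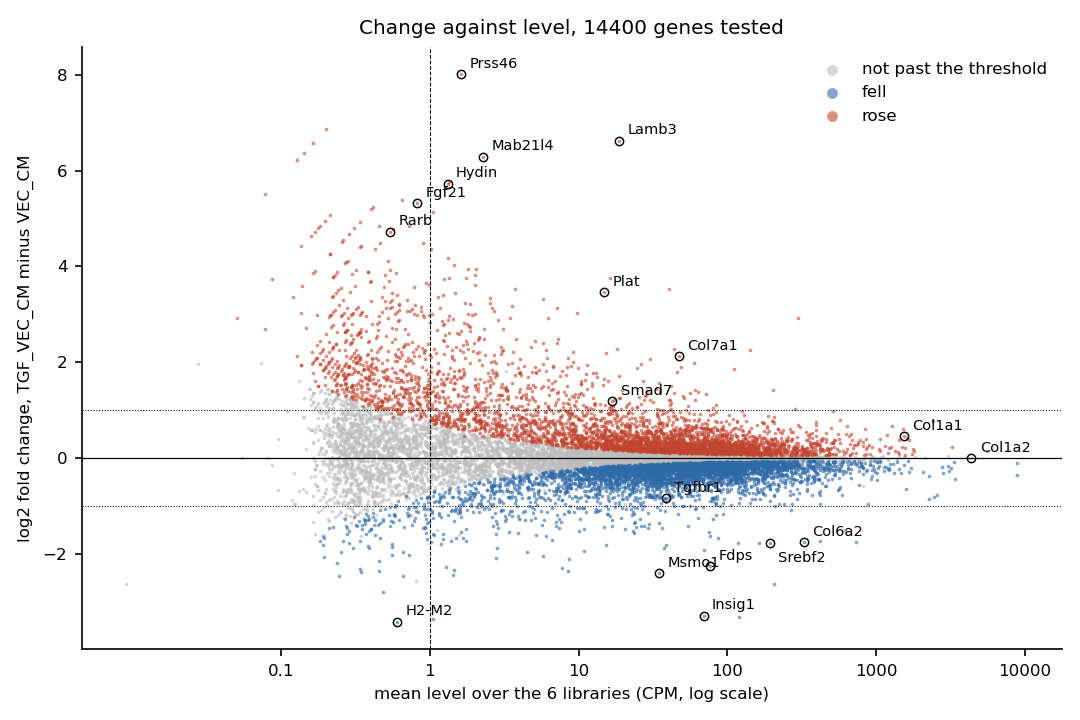
Each point is 1 of 14400 genes, placed by its mean level over the 6 libraries (CPM, log scale) and by its log2 fold change, TGF_VEC_CM minus VEC_CM; red genes rose and blue genes fell past an adjusted p of 0.05, dotted lines mark 2-fold and the dashed line 1 CPM. The large rises, such as Prss46 and Lamb3, lie mostly to the left, and the 2-fold falls at high level include Insig1, Msmo1 and Srebf2.

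Several genes that restrain TGF-beta signalling were higher with TGF-beta1, Smad7, Skil and Pmepa1 among them. Smad7, the inhibitory SMAD (chromosome 18, 75367365 to 75395935, NCBI gene 17131; GRCm38 here and below), stood at 10.5, 10.5 and 9.99 CPM in VEC_CM and 24.4, 21.7 and 24.4 CPM in TGF_VEC_CM. The groups did not overlap, and the gene rose 2.27-fold (log2 fold change 1.19 ± 0.0727 SE; adjusted p = 1.11e-22). Skil, which encodes the SMAD co-repressor SnoN (chromosome 3, 31095058 to 31122923, NCBI gene 20482), went from 53.6, 55.3 and 50.98 to 111, 113 and 119 CPM, a 2.14-fold rise with no overlap of the groups. Pmepa1, which encodes a membrane protein that keeps SMADs from the receptor (chromosome 2, 173224458 to 173276731, NCBI gene 65112), was weakly expressed, at 0.163, 0.164 and 0.137 CPM in VEC_CM and 1.46, 1.87 and 0.977 CPM in TGF_VEC_CM. Its rise (log2 fold change 3.19 ± 0.410 SE) was larger than that of Smad7, but its TGF_VEC_CM libraries were also further apart. Among TGF-beta induced inhibitors and co-repressors 6 of 12 members tested rose, 3 fell and 3 did not pass (median log2 fold change 0.36). Ldlrad4 and Ski, which also hold SMAD signalling back, rose by 0.85 and 0.31 on the log2 scale. The falls were those of Smurf1 (-0.21), Smurf2 (-0.13) and Lemd3 (-0.25), and against a change of at least 1.2-fold these small falls were not called (adjusted p = 1, 1 and 0.666).

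Among early and matrix targets of the pathway, 15 of 19 members tested rose, 1 fell and 3 did not pass (median log2 fold change 0.45), against a median of 0.00405 over all genes tested. Tgm2, transglutaminase 2, which crosslinks matrix proteins, rose from 112, 114 and 106 to 294, 298 and 299.8 CPM (log2 fold change 1.42 ± 0.0296 SE; adjusted p = 7.59e-48). The TGF_VEC_CM libraries were close to each other and far above the highest VEC_CM library. Ccn1, a matricellular gene, rose from 24.9 ± 2.79 to 47.4 ± 3.13 CPM (mean ± SD, n = 3), and Junb, an AP-1 subunit, from 24.2 ± 1.73 to 44.7 ± 1.21 CPM. The member that fell was Tgfbi (-0.20 on the log2 scale), a call that was lost against a 1.2-fold change (adjusted p = 1). Ccn2, often used as a readout of the pathway, was not tested, since it was at 0 to 0.0817 CPM in every library, and neither were Tagln, Nox4, Cdkn2b and Hspb1.

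The ligands, receptors and SMADs of the pathway moved in both directions. Tgfb1 itself was at 43.5, 42.3 and 43.7 CPM in VEC_CM and 45.7, 45.8 and 44.9 CPM in TGF_VEC_CM and did not pass (adjusted p = 0.18). Its groups did not overlap, and limma on the FPKM values called it higher, with an adjusted p of 0.0183 to 0.0464 over 3 settings. Inhba, which encodes the activin A subunit, fell from 2.77 to 1.36 CPM, and Gdf15, a distant member of the family that responds to stress, rose from 14.9 to 30.6 CPM. Fstl3, a secreted antagonist that binds activins (chromosome 10, 79777274 to 79782630, NCBI gene 83554), stood at 54.1, 45.9 and 47.9 CPM in VEC_CM and 243, 225 and 235 CPM in TGF_VEC_CM. Its rise of 4.75-fold was the largest among BMP and GDF ligands and antagonists, of which 2 of 7 rose and 1 fell. Tgfbr1, the type I receptor that TGF-beta1 signals through (chromosome 4, 47353222 to 47414926, NCBI gene 21812), was lower, at 52.2, 48.8 and 47.1 CPM in VEC_CM and 26.3, 28.3 and 28.3 CPM in TGF_VEC_CM (log2 fold change -0.84 ± 0.0539 SE). Tgfbr2, the type II receptor, fell by 0.28 on the log2 scale and the co-receptor Tgfbr3 by 0.52, the Tgfbr2 call being lost against a 1.2-fold change (adjusted p = 0.423), while the co-receptor Eng and the BMP receptor Bmpr2 rose by 0.59 and 0.49. Across the superfamily receptors 5 of 12 members tested rose, 4 fell and 3 did not pass (median log2 fold change 0.09). Of 6 SMADs other than the inhibitory ones, Smad9 rose (0.55), Smad2 fell (-0.38), and Smad3, at 44.3 to 46.3 CPM, was among the 4 that did not pass.

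Matrix genes went both ways. Col1a1, the alpha 1 chain of collagen I (chromosome 11, 94936224 to 94953042, NCBI gene 12842), was higher at 1294, 1325 and 1289 CPM in VEC_CM and 1757, 1800.5 and 1801 CPM in TGF_VEC_CM (log2 fold change 0.46 ± 0.0223 SE). All 3 TGF_VEC_CM libraries lay above the highest VEC_CM library. Its partner chain Col1a2 went from 4379 ± 58.3 to 4377 ± 47.1 CPM (mean ± SD, n = 3; adjusted p = 0.982), Col3a1 from 97.2 ± 3.07 to 95.9 ± 5.78 CPM (0.688) and fibronectin, Fn1, from 2139.7 ± 52.2 to 2131 ± 36.3 CPM (0.835). The groups of these 3 genes overlapped and none passed the test. Of the fibrillar and fibril-associated collagens 8 of 11 members tested rose, 1 fell and 2 did not pass (median log2 fold change 0.28), with Col12a1, a fibril-associated chain, up from 11.2 to 26.7 CPM and Col5a3 down by 0.35 on the log2 scale. Postn, which encodes periostin, a matricellular protein of wounds, was higher at 0.953, 1.04 and 1.07 CPM in VEC_CM and 1.88, 2.68 and 2.39 CPM in TGF_VEC_CM, a low level. Collagen VI, the beaded filament of the pericellular matrix, showed the largest collagen falls. Col6a2 (chromosome 10, 76595756 to 76623630, NCBI gene 12834) stood at 473, 504 and 538 CPM in VEC_CM and 146, 149.5 and 153 CPM in TGF_VEC_CM (log2 fold change -1.75 ± 0.0323 SE), and Col6a1 fell by 1.51, whereas Col6a3 fell by 0.22 and was not called against a 1.2-fold change. Col7a1, the anchoring fibril collagen of epithelial borders (chromosome 9, 108953586 to 108984875, NCBI gene 12836), rose 4.38-fold, from 18.6, 17.3 and 16.8 to 75.1, 76.96 and 79.2 CPM.

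Of the genes that process and crosslink collagen, 11 of 20 members tested rose, 6 fell and 3 did not pass (median log2 fold change 0.38). Loxl2, a lysyl oxidase, rose from 50.6, 43.4 and 48.9 to 174, 171 and 174 CPM (log2 fold change 1.86 ± 0.0403 SE), with no overlap of the groups, and Plod2, a lysyl hydroxylase, rose from 132 to 218 CPM. Among matrix proteases and inhibitors 10 of 18 members tested rose, 6 fell and 2 did not pass (median log2 fold change 0.57). Plat, tissue plasminogen activator (chromosome 8, 22757722 to 22782848, NCBI gene 18791), was at 3.19, 2.29 and 1.97 CPM in VEC_CM and 26.8, 27.6 and 27.7 CPM in TGF_VEC_CM, with the TGF_VEC_CM libraries close to each other and 11.003-fold higher on average. Adamts4, an aggrecanase, rose from 3.23 to 13.7 CPM, while Timp2, an inhibitor of metalloproteases, and Mmp14, a membrane metalloprotease, fell from 317 to 162 CPM and from 362 to 256 CPM. Matrix glycoproteins and proteoglycans were split, with 9 of 22 higher and 9 lower: Fbln2, Ccn4 and Tnxb rose by 0.61, 0.76 and 0.92 on the log2 scale, and Efemp1 fell by 0.97. Laminins, the trimers of basement membranes, were looked at after the rise of Lamb3 was seen: 6 of 7 chains tested rose, Lama5 from 348 to 684 CPM, Lamb1 from 299 to 484 CPM among them, and Lamb2 fell from 132 to 98.5 CPM.

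The contractile genes of myofibroblasts were split. Among them 8 of 16 members tested rose, 6 fell and 2 did not pass (median log2 fold change 0.06), and Acta2, the smooth muscle actin gene, stood at 0.517, 0.519 and 0.739 CPM in VEC_CM and 0.450, 0.271 and 0.407 CPM in TGF_VEC_CM (adjusted p = 0.193), close to the limit of counting. Cald1 (caldesmon) rose from 672 to 1027 CPM and Pdlim7, an actin-associated LIM protein, from 54.2 to 94.3 CPM. Mylk, myosin light chain kinase, fell from 74.3, 77.9 and 73.96 to 36.4, 37.5 and 38.6 CPM, and Cnn2, a calponin, fell by 0.49 on the log2 scale. The other falls, of Des, Cnn3, Tpm4 and Tagln2, were between 0.06 and 0.14, and leaving out any 1 of the 6 libraries brought the number of falls in the list from 6 to between 2 and 4, with 2 also under upper-quartile scaling. Synpo2, an actin-bundling protein of muscle, showed the largest rise of the list, from 0.446 to 2.81 CPM. Of the regulators of focal adhesions and actin 7 of 25 members tested rose, 14 fell and 4 did not pass (median log2 fold change -0.13), with Pxn (paxillin) and Tns3 higher by 0.47 and 0.42 and Parva and Flna lower by 0.53 and 0.44.

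**Figure D2:**
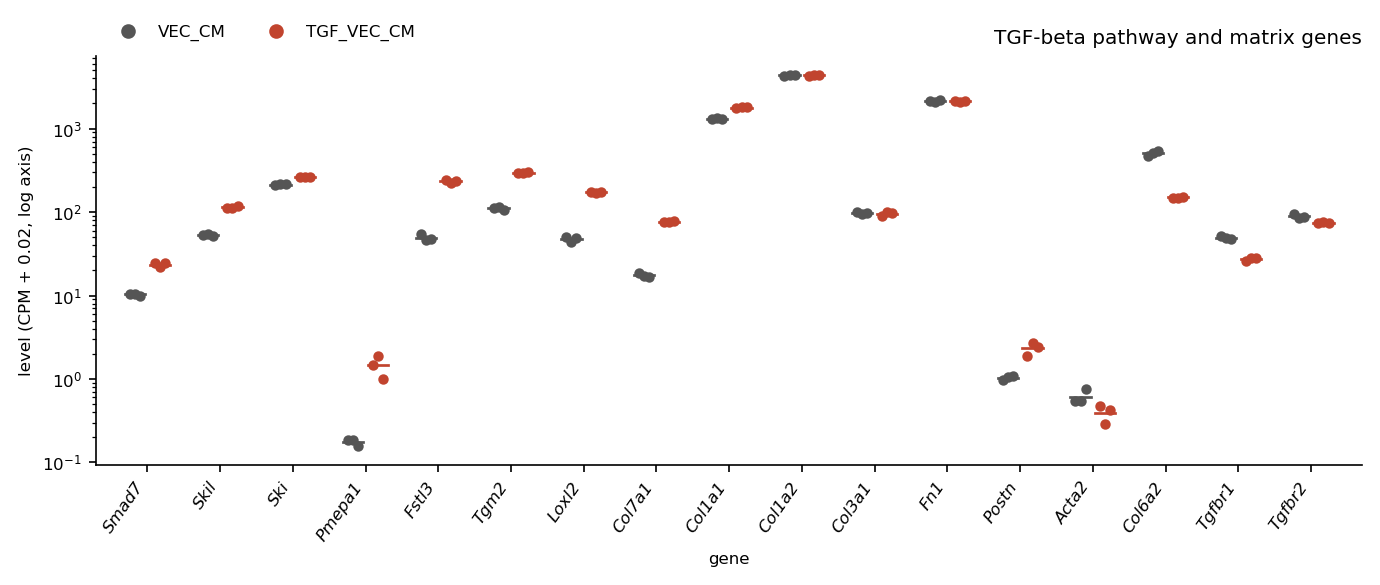
Levels of 17 genes in each of the 6 libraries (CPM with 0.02 added, log axis); points are libraries, grey for VEC_CM and red for TGF_VEC_CM, and short lines are group means. Fstl3, Loxl2 and Col7a1 stand well apart between the groups, Col1a2, Col3a1 and Fn1 overlap, and Col6a2 and Tgfbr1 are lower with TGF-beta1.

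The largest rises among genes with a mean of at least 1 CPM began from almost no expression. Prss46, a serine protease gene (chromosome 9, 110844506 to 110856522, NCBI gene 74306), had 1 count in the 3 VEC_CM libraries together and stood at 2.75, 3.84 and 3.09 CPM in TGF_VEC_CM, a ratio of 356 with a 95% exact interval of 63.4 to 14100.0 that covers counting error only. Lamb3, a laminin beta chain of epithelial basement membranes (chromosome 1, 193294353 to 193343878, NCBI gene 16780), reached the highest level of these genes, going from 0.708, 0.273 and 0.137 to 35.7, 33.1 and 42.6 CPM (log2 fold change 6.62 ± 0.210 SE). VEC_CM itself was uneven for Lamb3, but its highest library was far below the lowest of TGF_VEC_CM. Mab21l4 rose from 0.0546 to 4.54 CPM, Bpifc from 0.0455 to 2.64 CPM, Hydin, a gene of motile cilia, from 0.0455 to 2.59 CPM, and Misfa from 0.0546 to 2.04 CPM. Wfdc8, Ccdc13, the aldehyde dehydrogenase gene Aldh3b2 and Rapgef5, an activator of Rap GTPases, rose by 4.37, 4.18, 4.03 and 3.95 on the log2 scale. The VEC_CM means of these genes other than Lamb3 lay between 0.00911 and 0.246 CPM, so most of them were at or near the limit of counting without TGF-beta1.

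Genes that cells use to make cholesterol were among the largest falls. Insig1, the membrane protein that holds the SREBP transcription factors back when sterols are plentiful (chromosome 5, 28071412 to 28078662, NCBI gene 231070), fell from 125, 136 and 117 to 12.2, 13.4 and 12.9 CPM (log2 fold change -3.29 ± 0.0518 SE; adjusted p = 9.57e-50). Both groups were tight, and the gap between them was many times their spread. Of the sterol synthesis list 19 of 19 members tested fell and 0 rose, 13 of them at least 2-fold, with a median log2 fold change of -1.54; the background of falls is 29.4%. Among them were the enzymes Fdps (126 to 26.5 CPM), Msmo1 (58.8 to 11.1 CPM), Cyp51 (643 to 193 CPM) and Hmgcs1 (183 to 53.02 CPM), and Srebf2, which encodes the SREBP that drives these enzymes (chromosome 15, 82147269 to 82205379, NCBI gene 20788), which stood at 299, 305 and 298 CPM in VEC_CM and 86.3, 89.03 and 86.5 CPM in TGF_VEC_CM. The summed level of the list was 2342 to 2483 CPM in VEC_CM and 743 to 750.2 CPM in TGF_VEC_CM. The 19 falls were also called by DESeq2 and with any 1 library left out.

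SREBP factors bind sterol regulatory elements near the start of their target genes, and because the sterol genes moved together the promoters of the list were searched for the sterol element TCACNCCAC on both strands, in the window from 250 bases before to 50 after the start in RefSeq's GRCm38.p6 tables. A match was present in 1 of the 14 list members with a listed promoter, which are 73.7% of the members tested. Over all 27025 genes with a listed promoter 1.44% hold a match. With members left out and a search prompted by the falls themselves, these shares were not compared. The promoter with the match is that of Hmgcs1, which encodes the synthase of HMG-CoA, the substrate of the pathway's rate-limiting enzyme, and which fell 3.45-fold. It is shown from chr13:119690189-119690247 (+ strand), 5′ to 3′, with the matching bases in capitals, of which the first lies 137 bases before the start:
Hmgcs1: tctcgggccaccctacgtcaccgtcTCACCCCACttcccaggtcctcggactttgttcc
No match in the other promoters says only that these letters are not in that window.

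Other large falls were those of Gm46220, a predicted gene (354 to 57.4 CPM), Prkcb, protein kinase C beta (14.2 to 2.78 CPM), Tmco4 (12.9 to 2.62 CPM) and Mid1ip1, which promotes fatty acid synthesis (2.15 to 0.437 CPM). Gm33841, 9330179D12Rik and Iigp1c, the last of a family of near-identical interferon-induced GTPases whose counts are uncertain for that reason, fell from 1.91, 2.41 and 2.42 CPM by 3.36, 2.45 and 2.34 on the log2 scale. Genes of fatty acid uptake and oxidation were more often lower, with 10 of 21 falling and 4 rising. Lpl, lipoprotein lipase, fell from 682 to 428 CPM, Acsl1, an acyl-CoA synthetase, from 99.958 to 65.4 CPM and Fabp4, a fatty acid carrier, from 260.5 to 179 CPM, and Acadvl, an acyl-CoA dehydrogenase, rose from 92.95 to 132 CPM.

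Transcription factors were higher and lower in similar numbers, and the largest changes were rises. Of 341 factors tested from the lists and named families, numbered zinc fingers left out, 103 rose (30.2% against 28.9% of all genes) and 114 fell (33.4% against 29.4%), with a median log2 fold change of -0.0180. At least 2-fold rises numbered 24 (7.04% against 7.27% of all genes) and falls 7, so the share of large rises was near the background. Of those rises 13 were in the 41 factors with a mean under 1 CPM (31.7% against 25.2% of weak genes). At 1 CPM and over 3.67% rose at least 2-fold, against 3.8% of all genes at that level. At 1 CPM and over, a pair of nuclear receptors gave the largest rises. Nr1i2, the pregnane X receptor that senses foreign compounds, was at 0.381, 0.382 and 0.520 CPM in VEC_CM and 3.85, 3.44 and 3.01 CPM in TGF_VEC_CM (7.97-fold). Nr4a3, an orphan receptor induced early after stimulation, was at 0.463, 0.601 and 0.274 CPM in VEC_CM and 2.64, 3.33 and 3.34 CPM in TGF_VEC_CM. Neither gene's groups overlapped, and both stayed under 4 CPM. Of 29 nuclear receptors on the fixed list 8 rose and 11 fell: Nr1d1, a clock repressor, rose from 40.6 to 69.9 CPM, while Nr3c1, the glucocorticoid receptor, and Pparg, the adipocyte receptor, fell by 0.42 and 0.44 on the log2 scale.

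Rarb, the retinoic acid receptor beta gene (chromosome 14, 16430839 to 17082331, NCBI gene 218772), had the largest rise among factors whose VEC_CM libraries were not all at 0. It stood at 0.0545, 0.0546 and 0 CPM in VEC_CM and 0.871, 1.03 and 1.25 CPM in TGF_VEC_CM (log2 fold change 4.72 ± 0.626 SE), a change from a level at the limit of counting to about 1 CPM. It was at 0.487 ± 0.206 CPM in the other TGF-beta1 group of the series, TGF_KD_CM, and at 0.313 ± 0.173 CPM in OE_CM, the other group without TGF-beta1. Rarb is a textbook target of retinoic acid receptors, which bind repeated half-sites in its promoter. The pattern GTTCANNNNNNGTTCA, searched on both strands, is present in 24 of 27025 genes with a listed promoter (0.0888%). The stretch of the Rarb promoter that holds it, chr14:16575488-16575553 (- strand, GRCm38.p6), reads as follows, with the match in capitals and its first base 52 bases before the start:
Rarb: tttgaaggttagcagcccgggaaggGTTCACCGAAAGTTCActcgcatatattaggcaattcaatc
The match is a description of the sequence. Rara, another receptor of the family, fell by 0.41 on the log2 scale, and Rarg and Rxra did not pass (adjusted p = 0.0619 and 0.0532).

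AP-1, which pairs FOS and JUN proteins, is a known partner of SMADs. Of the AP-1, EGR, MYC and ATF factors 9 of 19 members tested rose, 2 fell and 8 did not pass (median log2 fold change 0.24). Fos was at 0.163, 0.328 and 0.192 CPM in VEC_CM and 1.26, 1.35 and 0.977 CPM in TGF_VEC_CM, 5.20-fold higher. Fosb was at 0.463, 0.219 and 0.438 CPM in VEC_CM and 1.83, 2.33 and 2.06 CPM in TGF_VEC_CM, 5.51-fold higher. The groups of neither gene overlapped, but both genes stayed under 3 CPM in each library. Junb and Maff rose from 24.2 to 44.7 CPM and 14.03 to 20.7 CPM, and Myc from 84.3 to 121 CPM. Atf5, a stress-response factor (chromosome 7, 44812256 to 44816658, NCBI gene 107503), fell from 251, 248 and 265 to 77.2, 69.98 and 75.01 CPM (log2 fold change -1.78 ± 0.0336 SE), the same log2 fall as that of Srebf2. Among SRF, MRTF, MEF2, TEAD and YAP factors, which drive contractile and adhesion genes, 7 of 13 members tested rose, 1 fell and 5 did not pass (median log2 fold change 0.13), all between -0.32 and 0.43 on the log2 scale: Mrtfa, Wwtr1, Mef2d and Srf rose by 0.43, 0.35, 0.34 and 0.30. The call on Srf was lost in a test against a 1.2-fold change (adjusted p = 0.174).

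Further rises of factors came from several families. Elf3, an ETS factor of epithelia, was at 0.354, 0.300 and 0.465 CPM in VEC_CM and 2.64, 2.46 and 1.79 CPM in TGF_VEC_CM. Gli2, an effector of hedgehog signals, was at 0.490, 0.819 and 0.739 CPM in VEC_CM and 2.64, 2.22 and 2.47 CPM in TGF_VEC_CM, and Nfatc2, a calcium-regulated factor, at 2.01, 2.46 and 2.05 CPM in VEC_CM and 8.12, 7.82 and 6.68 CPM in TGF_VEC_CM. In each of these 3 genes every TGF_VEC_CM library was above every VEC_CM library. Creb3l3 and the Notch-pathway repressor Hes7 rose from 1.80 to 6.18 CPM and from 2.21 to 5.32 CPM. Under 1 CPM, Prdm1, a transcriptional repressor, rose from 0.0455 to 0.447 CPM and Foxn1, a factor of thymic epithelium and hair follicles, from 0.0637 to 0.574 CPM. Elf5 and Tbx10 had no count in the 3 VEC_CM libraries and reached 0.155 and 0.254 CPM, at least 5.67-fold and 9.31-fold higher than the 0.0273 CPM that 3 counts over the group would give.

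Falls of factors were fewer at 2-fold but included abundant genes. Srebf1, the sister of Srebf2 that serves fatty acid synthesis, fell from 285, 302 and 295 to 149, 154 and 152 CPM (log2 fold change -0.96 ± 0.0333 SE). Etv1, an ETS factor, fell from 43.8, 45.7 and 46.2 to 22.3, 22.7 and 21.6 CPM, and the forkhead factor Foxp2 from 5.80, 5.35 and 5.34 to 2.47, 2.19 and 2.47 CPM; the groups of each gene were clear of each other. Tshz2, Cebpd and Mxd4 fell by 0.91, 0.89 and 0.87 on the log2 scale. Among weak factors, Foxc1 fell from 0.555 to 0.229 CPM and Stat4 from 0.437 to 0.183 CPM. The Stat4 call was lost without any one of 5 libraries (adjusted p 0.0615 to 0.131), and the Foxc1 call without TGF_VEC_CM replicate 2 (0.134) or VEC_CM replicate 3 (0.0637). HOX factors, which carry positional identity, had 12 of 28 lower and 2 higher, with Hoxa3, Hoxa10 and Hoxc10 down by 0.65, 0.47 and 0.38 and Hoxb9 up by 0.88. Numbered zinc finger proteins had 106 of 337 lower and 51 higher, a median of -0.09. Of the regulators of mesenchymal transition 3 of 13 rose and 5 fell, among them Foxs1 (0.74), Foxp1 (0.49), Prrx1 (-0.79) and Zeb2 (-0.33).

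Genes of the receptor lists were higher more often than lower. These lists also hold Notch ligands, Wnt antagonists and secreted lectins such as Clec11a, which are not receptors. Of 260 tested, 98 rose (37.7%) and 68 fell (26.2%), with a median log2 fold change of 0.11. At least 2-fold rises numbered 43 (16.5% against 7.27% of all genes) and falls 13. Receptors are often weakly expressed, so the shares were also taken by level. Of 191 list members at 1 CPM or more 18 rose at least 2-fold (9.42% against 3.8% of all genes at that level). Of 69 under 1 CPM 25 did (36.2% against 25.2%). The lists were chosen with earlier results known, and this difference was not tested.

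Integrins, which tie cells to the matrix and can release TGF-beta from its latent form, had 10 of 20 chains higher and 3 lower (median log2 fold change 0.32). Itga7, a laminin receptor chain (chromosome 10, 128933421 to 128958286, NCBI gene 16404), rose 3.67-fold, from 11.4, 10.3 and 10.1 to 37.2, 40.9 and 38.7 CPM. Itga5, Itgav and Itgb5, chains of fibronectin and vitronectin receptors at over 170 CPM, rose by 0.61, 0.59 and 0.35 on the log2 scale. Itgb3, another partner of Itgav, went from 0.0817, 0.0546 and 0.0821 to 0.759, 1.00 and 1.19 CPM (log2 fold change 3.70 ± 0.484 SE), a rise from near the limit of counting with no overlap of the groups.

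Adhesion G protein-coupled receptors, which have long extracellular domains that bind matrix or cells, had 9 of 12 tested members higher, 6 of them at least 2-fold, and 2 lower. Adgrg1, a receptor of collagen III (chromosome 8, 94974756 to 95014208, NCBI gene 14766), rose from 10.4, 11.6 and 10.2 to 41.5, 40.5 and 43.6 CPM (log2 fold change 1.96 ± 0.0705 SE). Adgrg5 was at 0.626, 0.956 and 0.821 CPM in VEC_CM and 5.98, 5.95 and 6.38 CPM in TGF_VEC_CM, Adgrd1 rose from 5.91 to 20.2 CPM and Adgra1 from 0.227 to 1.85 CPM. Adgre5 fell by 0.52 on the log2 scale, and Adgre1, the macrophage antigen F4/80, fell from 1.61, 1.91 and 2.08 to 0.731, 0.622 and 0.380 CPM.

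Receptor tyrosine kinases were divided, with 9 of 23 higher and 8 lower. Ret, the receptor of glial-derived factors, was at 0.272, 0.519 and 0.219 CPM in VEC_CM and 2.81, 2.79 and 2.01 CPM in TGF_VEC_CM, and Epha2, Axl and Met rose by 0.91, 0.63 and 0.54 on the log2 scale. Pdgfrb, a receptor of platelet-derived growth factor that marks fibroblasts and pericytes, fell from 103, 100 and 103 to 58.1, 55.4 and 58.04 CPM. In the Notch pathway 4 of 5 rose: Notch4 was at 0.327, 0.109 and 0.274 CPM in VEC_CM and 2.39, 2.25 and 1.68 CPM in TGF_VEC_CM, Jag2 and Dll4, both ligands, rose from 7.45 to 11.02 CPM and 0.273 to 0.833 CPM, and Notch1 fell by 0.29, a call that a test against a 1.2-fold change did not keep (adjusted p = 0.333). Ackr3, a scavenging chemokine receptor (chromosome 1, 90203980 to 90215724, NCBI gene 12778), stood at 0.245, 0.300 and 0.520 CPM in VEC_CM and 3.17, 3.41 and 3.45 CPM in TGF_VEC_CM, 9.34-fold higher. P2ry6, a receptor of uridine nucleotides, was at 1.12, 0.683 and 0.438 CPM in VEC_CM and 3.51, 3.36 and 3.42 CPM in TGF_VEC_CM. Gpr149 rose from 0.555 to 2.65 CPM and Dkk3, a secreted member of the Wnt receptor and antagonist list, from 0.382 to 1.65 CPM.

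Of the interleukin and cytokine receptor list 8 of 33 members tested rose (24.2% against 28.9% of all genes) and 13 fell (39.4% against 29.4%), 3 and 1 of them at least 2-fold. Counted as the gene family of interleukin receptors alone, 10 of 23 rose and 7 fell, so the balance depended on which genes were counted. Il6st, the shared signal chain of the interleukin-6 family, fell from 315, 320.3 and 336 to 232, 238 and 244 CPM, Crlf2 fell from 13.2 to 7.50 CPM and Ifngr2 by 0.32 on the log2 scale, and Il4ra rose by 0.32; the Ifngr2 and Il4ra calls were lost against a 1.2-fold change (adjusted p = 0.0962 and 0.0594). Of receptors for signals that adipocytes release 6 of 20 rose and 8 fell: Tnfrsf1a fell by 0.47 on the log2 scale and Lrp1, a multiligand uptake receptor, rose from 993, 988 and 1001 to 1603, 1549 and 1611 CPM. Clec11a, a secreted protein counted with the C-type lectin receptors, fell from 32.8, 35.5 and 35.2 to 10.5, 13.2 and 12.4 CPM. Ptprf, a receptor tyrosine phosphatase, fell from 10.4 to 3.85 CPM, Galr2, a galanin receptor, from 3.89 to 1.46 CPM and P2rx6 from 2.28 to 0.712 CPM.

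Several falling receptors are at home in macrophages and other leukocytes: Adgre1, Clec4e (4.16 to 1.37 CPM), Clec4n (2.42 to 0.820 CPM), Clec4d (1.01 to 0.440 CPM) and Il7r (0.619 to 0.165 CPM). Their families were mixed. Of C-type lectin and killer lectin-like receptors 3 of 14 tested rose (21.4%) and 6 fell (42.9%), and of Toll-like receptors 2 of 6 rose and 1 fell. Tlr1 and Tnfrsf13c rose by 1.63 and 1.29 on the log2 scale, calls that DESeq2 did not keep (adjusted p = 0.0707 and 0.12). The Clec4 genes are similar neighbours, so their counts are uncertain. Without TGF_VEC_CM replicate 3 Clec4n no longer passed (adjusted p = 0.0507), and without VEC_CM replicate 1 Clec4d did not (0.0869). Markers of leukocytes fell alongside. Of 12 tested 5 fell (Adgre1, Laptm5, Csf1r, Cd14 and Cd68; 3 without TGF_VEC_CM replicate 3) and 1 rose, and the summed level of the 14 in the table was 51.1 to 53.6 CPM in VEC_CM and 38.4 to 41.9 CPM in TGF_VEC_CM. Lyz2, the most abundant of them, did not pass (adjusted p = 0.321). In bulk libraries fewer cells of a type and less RNA per cell cannot be told apart, and the part of leukocyte RNA in these falls was not tested.

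**Figure D3:**
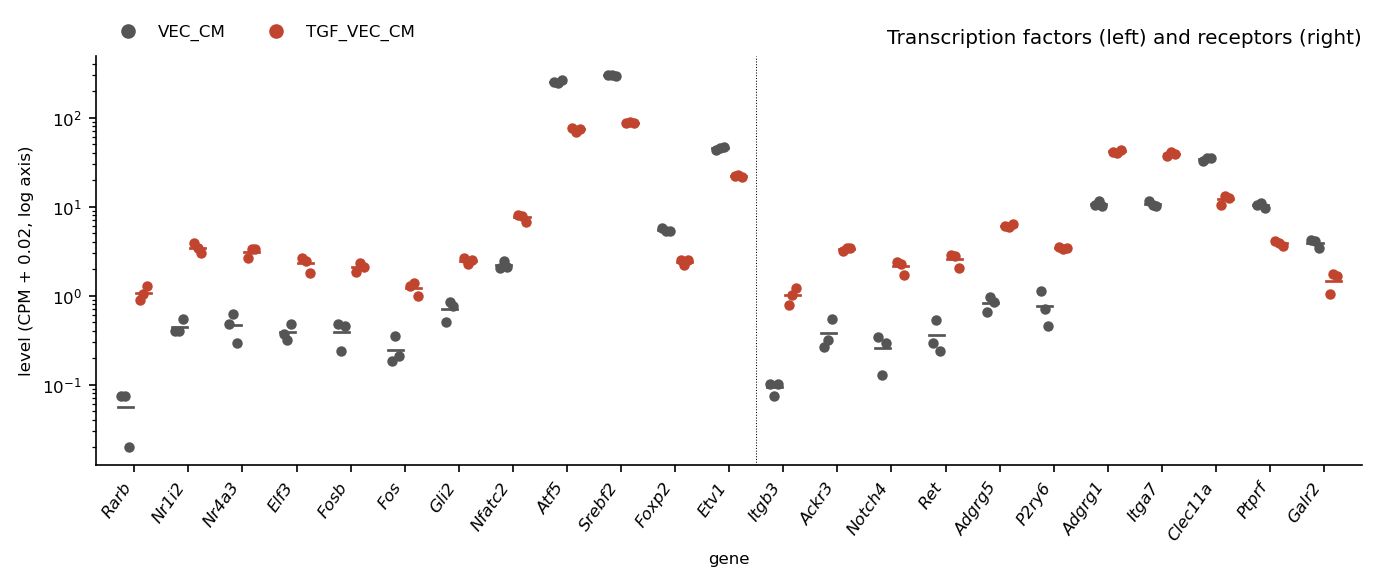
Levels in each of the 6 libraries of 12 transcription factors (left of the dotted line) and 11 genes of the receptor lists (right). Among the latter, Clec11a encodes a secreted protein. The axis is logarithmic, in CPM with 0.02 added. Grey points are VEC_CM, red points TGF_VEC_CM and short lines group means. The groups are apart for each of these genes; the rises from Rarb to Fos and from Itgb3 to Ret start under 1 CPM, and the falls of Atf5 and Srebf2 start above 200 CPM.

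Genes of secreted signals rose more than they fell. Of the cytokines, chemokines and growth factors 19 of 32 members tested rose, 5 fell and 8 did not pass (median log2 fold change 0.51). Lif, a cytokine of the interleukin-6 family, rose from 8.33, 8.77 and 9.19 to 27.9, 29.3 and 28.5 CPM, and Cx3cl1, a chemokine, from 25.7, 26.3 and 26.7 to 56.6, 57.2 and 56.4 CPM. Csf1, the growth factor of macrophages, rose by 0.37 on the log2 scale. Among ligands of the epidermal growth factor receptor, Hbegf rose from 5.94, 6.23 and 7.06 to 20.99, 16.5 and 17.05 CPM, Ereg from 5.88, 4.81 and 4.82 to 14.4, 16.8 and 16.02 CPM and the weak Areg from 0.209 to 1.02 CPM. Vegfa, which acts on endothelial cells, went from 187, 182 and 195 to 368, 376 and 398 CPM, and Fgf2 from 10.6 to 22.5 CPM. The groups of these genes did not overlap. Of other ligands of the epidermal growth factor receptor, Btc rose by 0.86 on the log2 scale and Egf did not pass (adjusted p = 0.247). Il33, an alarmin, rose from 0.136, 0.246 and 0.219 to 1.35, 1.62 and 1.85 CPM, and Ccl2, a monocyte chemokine at higher level, from 495 to 784 CPM. Falls included Fgf7, a growth factor for epithelia (141 to 105 CPM), Ctf1 (5.81 to 3.73 CPM), Ccl5 (17.7 to 8.16 CPM), Cxcl2 (1.49 to 0.797 CPM) and Il1b (5.78 to 2.65 CPM). The calls on Ccl5 and Cxcl2 were lost without VEC_CM replicate 3 (adjusted p = 0.0523 and 0.0568) or TGF_VEC_CM replicate 3 (0.0649 and 0.0839), and that on Il1b without any 1 of the 6 libraries (0.0515 to 0.113). Fgf21, a metabolic hormone (chromosome 7, 45613890 to 45615490, NCBI gene 56636), was at 0.0272, 0.0546 and 0.0274 CPM in VEC_CM and 2.22, 1.19 and 1.38 CPM in TGF_VEC_CM, near the limit of counting without TGF-beta1.

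The listed interferon-stimulated genes, which sense viral RNA and block viruses, were mostly higher. In that list 13 of 18 members tested rose, 0 fell and 5 did not pass (median log2 fold change 1.15): Bst2 rose from 23.03 to 44.1 CPM, Dhx58 from 4.42 to 11.5 CPM and Oas3 from 3.26 to 9.11 CPM, and Zbp1, a nucleic acid sensor, from 1.23, 2.19 and 2.11 to 8.34, 10.6 and 10.2 CPM. At an unadjusted p under 0.05 edgeR gave 2 falls in the list and DESeq2, adjusted, 1. Among those that did not pass, Rsad2 was at 2.67, 2.35 and 2.11 CPM in VEC_CM and 0.927, 0.947 and 0.462 CPM in TGF_VEC_CM (adjusted p = 0.0592) and Isg15 at 1.16 to 1.08 CPM. Outside the list, the interferon-induced Iigp1c fell by 2.34 on the log2 scale. Of interferon regulatory factors and STATs 2 of 15 tested rose (13.3%) and 7 fell (46.7%). Both groups had been exposed to medium of lentivirus-infected adipocytes. Oasl1, from 3.61 to 9.79 CPM, has a similar gene beside it, Oasl2, and its count is uncertain for that reason.

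Genes of growth were lower by small amounts. In the cell cycle list 20 of 30 fell and 4 rose, with a median log2 fold change of -0.21. Cdc20, an activator of mitotic exit, fell from 154, 159 and 162 to 84.5, 83.97 and 79.4 CPM, and the replication licensing genes Mcm5, Mcm4 and Mcm7 fell by 0.69, 0.56 and 0.55 on the log2 scale. Cytosolic ribosomal protein genes had 62 of 84 lower and 2 higher, with a median log2 fold change of -0.16, and their share of the counts went from 5.25 ± 0.0230% to 4.88 ± 0.0384%. Of mitochondrially encoded messenger RNAs 8 of 13 fell and the rest did not pass. Upper-quartile factors in place of TMM shifted the median log2 fold change of all genes from 0.00405 to 0.0286, less than the median fall of the ribosomal protein genes.

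**Figure D4:**
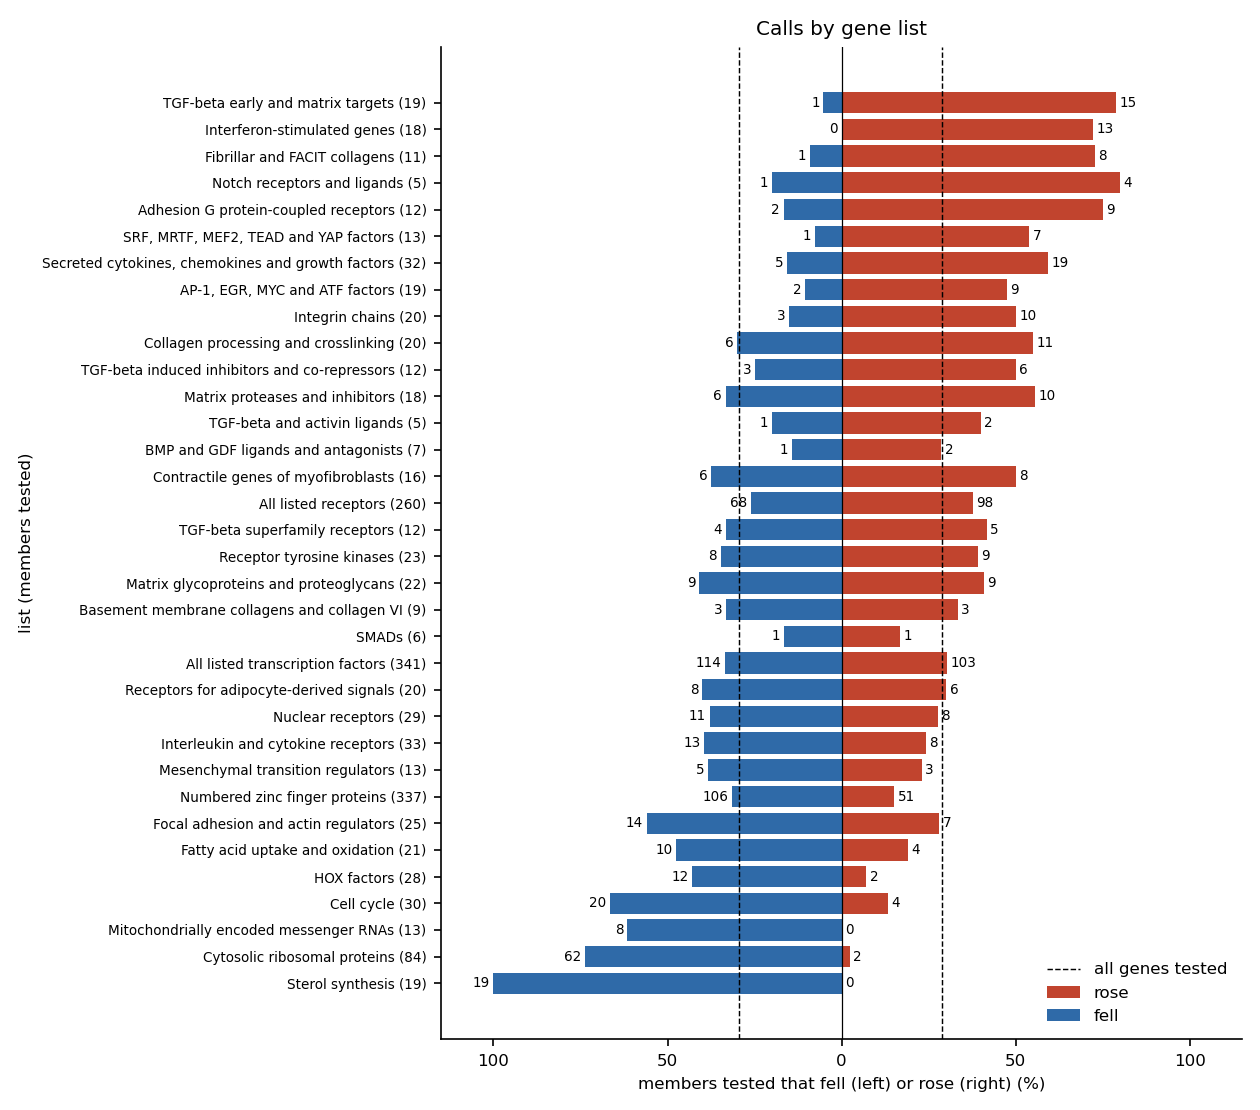
For each gene list (members tested in brackets), the percentage of members that rose (red, right) and fell (blue, left) past an adjusted p of 0.05, with the counts at the bar ends; dashed lines mark the percentages over all 14400 genes. Sterol synthesis genes all lie on the left with 19 of 19, ribosomal protein genes follow with 62 of 84, and TGF-beta early and matrix targets lie at the other end with 15 of 19 higher.

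The excess of 2-fold rises over falls was largest in weakly expressed genes, here those with a mean under 1 CPM over the 6 libraries. Of 2339 such genes tested 611 rose (26.1%) and 111 fell (4.75%) by any amount, while 589 rose at least 2-fold (25.2%) and 98 fell (4.19%). At 1 CPM and over, 458 of 12061 rose (3.8%) and 184 fell (1.53%). The median log2 fold change declined with level, from 0.66 under 0.25 CPM and 0.34 from 0.25 to 1 CPM to 0.17 from 1 to 4 CPM. In the highest class, 256 CPM and over, 2 of 693 genes rose and 5 fell 2-fold, and falls of any size outnumbered rises (45.9% against 31.9%).

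The filter bears on this count, because a gene that is weak in VEC_CM could pass through TGF_VEC_CM alone. Of the 589 weak genes that rose, 415 reached the filter's cutoff of 0.275 CPM in all 3 TGF_VEC_CM libraries but not in all 3 VEC_CM libraries. Their median went from 0.155 to 0.621 CPM, the highest TGF_VEC_CM mean was 1.82 CPM, and 40 had at most 3 counts over the VEC_CM group. Measures that use no filter were therefore taken over the whole table. Of 11375 genes under 1 CPM with any count in the 6 libraries, 66.4% had the higher mean in TGF_VEC_CM. In 1552 of them (13.6%) all TGF_VEC_CM libraries lay above all VEC_CM libraries, and in 472 (4.15%) all lay below. Among the weak genes tested these shares were 30.5% above and 8.47% below, and among genes tested at any level 31.3% and 31.5%.

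The share of all counts that fell on the 12558 genes under 1 CPM was 0.127, 0.128 and 0.127% in VEC_CM and 0.176, 0.184 and 0.180% in TGF_VEC_CM. It was 1.41 times higher with TGF-beta1, with no overlap, and the two-sided exact permutation test of 3 against 3 libraries gave p = 0.1, the smallest it can give. The share was 0.106 to 0.110% in OE_CM and 0.173 to 0.178% in TGF_KD_CM, so both groups of the part with TGF-beta1 lay above both groups of the part without it. With each library thinned to 33379207 counts, genes with at least 1 count numbered 18631, 18549 and 18507 in VEC_CM and 19747, 19838 and 19844 in TGF_VEC_CM, a difference of 1247 (exact permutation p = 0.1, again the smallest possible). OE_CM had 18161 to 18212 and TGF_KD_CM 19164 to 19201. TGF_VEC_CM had the smaller library totals, and the part of the study cannot be told apart from TGF-beta1 in these values.

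**Figure D5:**
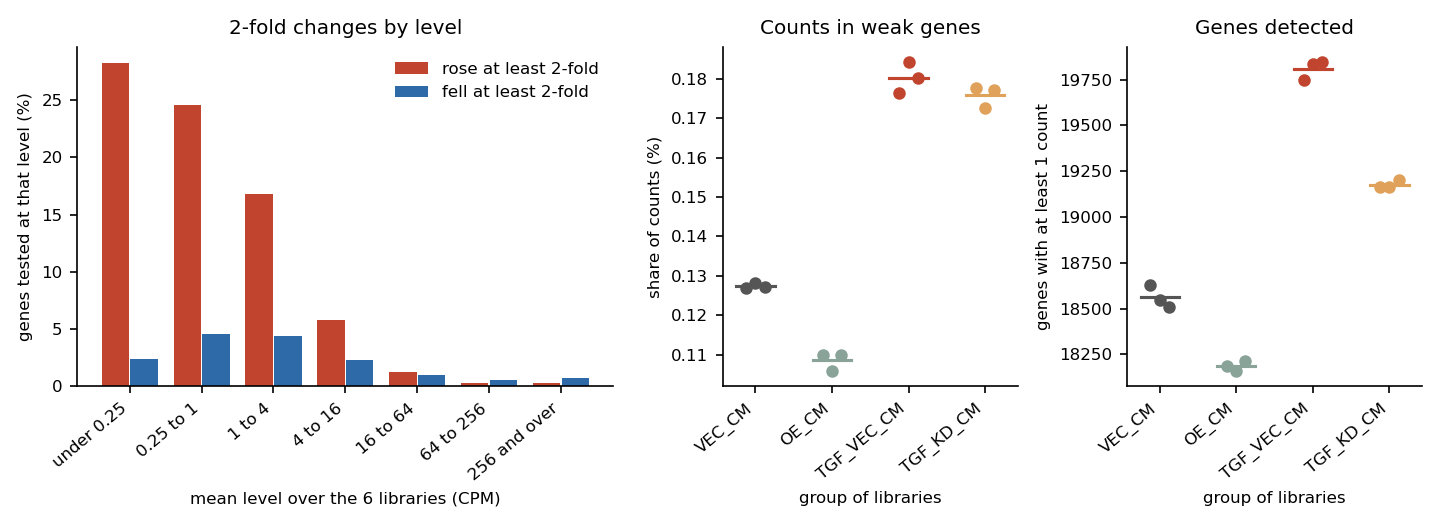
Left, the percentage of genes tested that rose (red) or fell (blue) at least 2-fold in classes of mean level over the 6 libraries (CPM); middle, the share of each library's counts that fell on the 12558 genes with a mean under 1 CPM; right, genes with at least 1 count after thinning, both by group with points for libraries and lines for means, on axes that do not start at 0. Rises outnumber falls up to 64 CPM, and the libraries with TGF-beta1 lie above those without it in both panels on the right.

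By the naming rule the largest weak rises were those of Gm39463, A930038B10Rik, Enho, Tbx10 and Elf5, none of which had a count in VEC_CM. Against 0.0273 CPM, which 3 counts over the VEC_CM group would give, Gm39463 was at least 14.8-fold higher, A930038B10Rik 12.1-fold and Enho, which encodes the secreted peptide adropin, 10.4-fold. Btn1a1, a butyrophilin of milk fat globules, had 3 counts in VEC_CM and stood at 1.27 ± 0.362 CPM in TGF_VEC_CM, a ratio of 46.9 (95% exact interval for counting error 15.7 to 230.0). Cdcp1, a substrate of SRC kinases, had 2 counts and reached 0.814 ± 0.190 CPM (ratio 44.7, 12 to 375). Weak receptors that rose included Chrna1, a muscle acetylcholine receptor subunit (0.182 to 1.55 CPM), Mc5r, a melanocortin receptor (0.0728 to 0.735 CPM), and Clec1a (0.0637 to 0.531 CPM). The pheromone receptor gene Vmn1r44 and the GABA receptor gene Gabrr3 had 1 count each in VEC_CM and 34 and 29 in TGF_VEC_CM. Among weak falls H2-M2, a class I histocompatibility gene, went from 1.31, 1.17 and 0.848 to 0.112, 0.108 and 0.0814 CPM, and Lrrc14b, Jakmip3 and Gm54310 fell by 2.80, 2.46 and 2.46 on the log2 scale.

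Among the weak genes tested, those that rose at least 2-fold were more often protein-coding and longer than other weak genes. Among those matched to RefSeq, 69.4% were protein-coding (391 of 563) against 58% of all weak genes and 88.1% of all genes tested, and 30.6% were long non-coding RNAs. Their median genomic span was 19 kb against 11.8 kb for weak genes that were not called. When weak genes were divided into 4 equal classes of genomic span, the share that rose 2-fold increased from 17.3% in the shortest (537 genes, up to 5.25 kb) to 24.8%, 26.8% and 35.9% in the longest (over 34 kb), and the median log2 fold change from 0.22 to 0.64. The share that fell stayed between 3.35% and 4.84%, and the median level of the classes between 0.393 and 0.406 CPM. By exon length, as the deposited FPKM values imply it, the share rose from 21.4% to 29.6%. From 1 to 16 CPM the classes of span gave 7.31%, 12%, 9.62% and 12.7%, shares without a steady order. The median log2 fold change of these classes still increased, through -0.007, 0.056, 0.081 and 0.137. By exon length at that level the share was 7.39%, 10.5%, 11.7% and 11.8%, and the median went from -0.018 to 0.136. The shortest classes there also had the lowest median level, 4.2 CPM by span and 3.98 CPM by exon length. These are descriptions over genes, which are not replicates, and they cover only genes that passed the filter. Of the 589 weak risers, 415 reached the filter's cutoff in all 3 TGF_VEC_CM libraries but not in all 3 VEC_CM libraries. Which weak genes were tested thus depended in part on the change itself. Gene class and length were not examined without the filter. A comparison of promoter motifs between sets is void here, since 77.7% of the genes tested, under 80%, had a listed promoter.

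Some genes that mark other cell types differed between the groups as well. Of epithelial markers 4 of 12 were tested and 4 rose. These were Krt7 (4.21 to 8.52 CPM), Ocln (0.146 to 1.25 CPM), Grhl2 (0.209 to 0.749 CPM) and Elf3, which is also counted among the transcription factors. The VEC_CM means of Ocln and Grhl2 lay under the filter's cutoff of 0.275 CPM. Both could enter the test through TGF_VEC_CM, so 4 of 4 says little about the list. The summed level of the 12 markers was 4.76 to 5.68 CPM in VEC_CM and 11.8 to 14.8 CPM in TGF_VEC_CM. The defining Epcam and Cdh1 stayed at 0 to 0.137 CPM. Endothelial markers summed to 1.09 to 1.69 and 1.52 to 2.33 CPM, with Pecam1 and Vwf higher, each under 1 CPM and lost without VEC_CM replicate 3 (Pecam1, adjusted p = 0.135) or TGF_VEC_CM replicate 1 (Vwf, 0.134) or VEC_CM replicate 2 (0.0608), and Flt1 not past the threshold. Of cardiomyocyte markers 2 of 4 tested rose, Tnnt2 from 71.9 to 109 CPM, and Myh6 lay at 0 to 0.136 CPM. Cspg4 carried the sum of smooth muscle and pericyte markers and rose from 565 to 798 CPM, Msln that of mesothelial markers, from 60.9 to 91.3 CPM. Fabp4 was the most abundant adipocyte marker, and that list summed to 459.9 to 478 CPM in VEC_CM and 368 to 390.3 CPM in TGF_VEC_CM. S100b, of Schwann cells, did not pass (adjusted p = 0.164), though it passed with only the 6 libraries in the fit (0.0336). The part of such cells in the results above was not tested.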

How the data were processed

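RNA was sequenced from 12 libraries in 4 groups of 3, assigned by sample title. The deposited table holds whole-number read counts per gene symbol, not normalized, made by the authors on genome build GRCm38, also listed as mm10 in the submitters' processing notes. The deposited FPKM table, per its values, is the same counts divided by column total and 1 length per gene. The aligner, counter, strand setting and annotation: not given in the sources used here. So overlapping, antisense and near-identical genes cannot be told apart.

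The count test was that of edgeR 4.0.16 under R 4.3.3: filterByExpr kept 14400 of 24619 genes, TMM factors were computed, all 12 libraries entered 1 robust quasi-likelihood fit with a mean per group, and TGF_VEC_CM was contrasted with VEC_CM, two-sided. CPM values are TMM-scaled, with SD over 3 libraries; SE of a log2 fold change is its size over the root of the F statistic. Alternatives used limma 3.58.1 and DESeq2 1.42.0. Single values were compared with exact permutation tests. The fit was also run on simulated counts whose spread was taken from the fit to the real counts. No result of that run is given here. Positions are from RefSeq GRCm38.p6, which matched 23457 symbols (95.3%).

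The genes named are fixed TGF-beta and matrix genes, the largest changes with non-overlapping groups (10 each way at 1 CPM and over, 8 rises and 4 falls under it), the same for transcription factors (8 each way; 6 and 3) and receptors, the members of lowest p in each list described, and the most abundant marker of each other cell type; list members beyond these and markers used to check the labels were chosen after their values were seen. The members and lists were chosen with earlier results of these data known. Some genes that these rules name are not reported here.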

Additional observations from a re-analysis of the deposited data

Results flagged for a closer look

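The 10219 genes that the filter removed enter no test, but their counts differed between the groups and for that reason are given here. They held 0.0344, 0.0348 and 0.0335% of the counts in VEC_CM and 0.0505, 0.0527 and 0.0519% in TGF_VEC_CM, 0.0342 ± 0.000699 against 0.0517 ± 0.00113% (SD, n = 3), a ratio of 1.51 (two-sided exact permutation p = 0.1, the smallest possible). Of the 9036 with a count in the 6 libraries 66.2% were higher in TGF_VEC_CM. The share was 0.0282 to 0.0287% in OE_CM and 0.0389 to 0.0404% in TGF_KD_CM. TGF-beta1 and the part of the study cannot be told apart here.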

How the results depend on the processing

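Counts that moved by more than 1.5 times, or levels by more than the spread between libraries, were the following. A test against a 1.2-fold change left 2014 genes higher and 1561 lower. A filter of 1 CPM in 3 libraries left 593 genes at least 2-fold higher and, of weak genes, 118 higher and 21 lower; it removes weak genes by construction. Without a filter 153 weak genes were 2-fold lower. With limma on log2(FPKM + 1) at an FPKM of at least 1 in 3 libraries, 146 genes were 2-fold higher and 54 lower, of weak genes 7 and 0; with a pseudocount of 0.1 these were 328, 118, 32 and 5; with no filter 147, 54, 8 and 0. The pseudocount shrinks changes of low values by construction. At any size of change, limma on log2(FPKM + 1) without a filter called 1186 weak genes higher and 181 lower, and it moved the share of rises among all calls from 49.6 to 60.2%. DESeq2 called 4117 higher and 3981 lower. Leaving out 1 library gave 3871 to 4105 higher, 3752 to 3993 lower, 1036 to 1089 and 261 to 291 at 2-fold, and 564 to 603 and 82 to 102 weak genes. Same-numbered libraries correlated in their deviations from the group means with r of 0.0417, 0.00807 and 0.0220. Differently numbered libraries did so with r of -0.0386 to 0.0163. Correlations this small do not settle whether the replicate numbers pair the libraries. With the replicate block 4213 genes were higher and 4308 lower, 1049 and 289 at 2-fold, and 591 and 104 weak genes. The difference in genes with at least 1 count was 1180.0 without thinning, 835 at 5 counts or more and 1220 to 1282 with 1 library left out. The ratio of the share of counts in weak genes was 1.46 under 0.5 CPM, 1.27 under 4 CPM and 1.40 to 1.43 with 1 library left out. Over 199 genes that the naming rule gives and 17 alternatives, 3216 of 3245 values kept their direction and side of the threshold. Of the rest 23 lost the call, 6 gained one and none reversed. Pairs of gene and alternative without a value were not counted. Most of these genes were picked for large or clear changes in the same counts, so this stability is no independent check. Counts of weak genes limit single libraries: 3 counts are 0.0811 to 0.0842 CPM.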

Other observations

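Some gene classes outside the lists above were counted as well. Subunits of voltage-gated ion channels were taken by gene name, a pattern that can also take in channels opened by other signals. Of these genes 16 of 31 tested rose by edgeR's test and the rest did not pass, with 8 rises of at least 2-fold. Their median log2 fold change was 0.33, and 14 of the 31 had a mean under 1 CPM. Kcnn1, a calcium-activated potassium channel, went from 3.27, 3.69 and 3.31 to 12.1, 11.8 and 12.3 CPM, Scn8a, a sodium channel, from 0.501 to 1.77 CPM, and Cacna2d1, a calcium channel subunit, from 5.02 to 10.01 CPM. Kcnab2, a beta subunit of potassium channels that the pattern leaves out, fell from 219.9, 209.6 and 212 to 146, 133 and 136 CPM. Solute carriers, membrane transporters, had 82 of 228 higher and 58 lower, against 28.9% and 29.4% of all genes. Protocadherins, cell adhesion molecules of clustered genes that share sequence, had 8 of 20 lower and 1 higher. Keratins, filament proteins of epithelia, had 4 of 7 higher and 1 lower: Krt18 rose from 0.0910 to 0.603 CPM and Krt80 from 21.3 to 29.1 CPM, and Krt10 fell from 2.59 to 0.923 CPM. Predicted genes with Gm numbers had 316 of 1427 higher and 166 lower (22.1% and 11.6%, both under those of all genes). Of the 863 under 1 CPM, 18.4% rose at least 2-fold, against 25.2% of all weak genes. These classes were noticed after their values were seen.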
